A study of Homo sapiens with 44 samples.

Results

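The comparison set 4 libraries collected 12 h after release from a thymidine block against 4 collected at 8 h, 8 of the 44 libraries in the series. They were chosen by their sample descriptions. All came from IMR5/75, a human neuroblastoma cell line with amplified MYCN, carrying an inducible short hairpin RNA (shRNA) against MYCN. At 12 h there were 2 libraries with tetracycline, which switches the hairpin on (Tet plus), and 2 without it (Tet minus), and at 8 h likewise. Every library had gone through the same 18 h thymidine arrest at the G1/S boundary, then washout. Neither a control hairpin nor tetracycline without the hairpin is among these groups, so an arm difference holds the hairpin and the drug together. The series design calls the 2 libraries of a group biological replicates. The labels place all replicate 1 libraries of 8, 10 and 12 h in lane 2 and all replicate 2 libraries in lane 5, so time and arm are balanced over lanes. Single libraries are named by arm, time and replicate number, P8-1 being Tet plus at 8 h, replicate 1, and M12-2 Tet minus at 12 h, replicate 2. The question was how the transcriptome moved between 8 and 12 h, a window taken as passage out of mitosis, and whether both arms moved alike.

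As cells approach mitosis, genes for the mitotic kinases, the spindle and the kinetochore reach their highest transcript levels, and the anaphase promoting complex (APC/C) then destroys many of their proteins to drive exit. Much of this transcription runs through promoters with a cell cycle genes homology region (CHR), the element bound by the DREAM and MYB-MuvB complexes, often near CCAAT boxes bound by NF-Y. Replication licensing genes, many of them E2F targets, are made again in the next G1. Replication-dependent histone mRNAs, which end in a stem-loop instead of a poly(A) tail, are made in S phase.

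Promoters are shown for 4 genes of the centromere, the passenger complex and the mitotic kinase that were lower at 12 h, and for CDC20, an APC/C activator that did not pass the test. Each is 300 bases from RefSeq (GRCh38.p14), read along the gene, from 250 bases before its start to 50 after it. Capitals mark the CHR (TTTGAA or TTCGAA, either strand) and the CCAAT box (either strand); in CDCA8 one of each overlaps.
HJURP, chr2:233854486-233854785, minus strand: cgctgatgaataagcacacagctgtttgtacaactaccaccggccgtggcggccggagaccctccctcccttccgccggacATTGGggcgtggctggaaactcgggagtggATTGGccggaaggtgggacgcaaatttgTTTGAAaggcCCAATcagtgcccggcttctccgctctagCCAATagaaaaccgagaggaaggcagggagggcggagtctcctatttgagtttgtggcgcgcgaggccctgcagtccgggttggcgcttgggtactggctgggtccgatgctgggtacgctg
CENPA, chr2:26785806-26786105, plus strand: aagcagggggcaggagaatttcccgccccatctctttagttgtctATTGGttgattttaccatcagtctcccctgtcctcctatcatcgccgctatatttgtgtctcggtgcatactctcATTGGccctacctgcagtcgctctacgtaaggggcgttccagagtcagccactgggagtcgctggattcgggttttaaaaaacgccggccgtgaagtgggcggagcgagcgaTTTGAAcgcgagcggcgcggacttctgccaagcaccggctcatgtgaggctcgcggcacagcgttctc
CDK1, chr10:60778081-60778380, plus strand: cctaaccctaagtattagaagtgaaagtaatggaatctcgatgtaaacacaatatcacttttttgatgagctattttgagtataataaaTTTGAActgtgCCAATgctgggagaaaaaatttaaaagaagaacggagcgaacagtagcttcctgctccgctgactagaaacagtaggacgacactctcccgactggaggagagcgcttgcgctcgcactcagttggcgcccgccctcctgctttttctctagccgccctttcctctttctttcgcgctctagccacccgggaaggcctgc
CDCA8, chr1:37692266-37692565, plus strand: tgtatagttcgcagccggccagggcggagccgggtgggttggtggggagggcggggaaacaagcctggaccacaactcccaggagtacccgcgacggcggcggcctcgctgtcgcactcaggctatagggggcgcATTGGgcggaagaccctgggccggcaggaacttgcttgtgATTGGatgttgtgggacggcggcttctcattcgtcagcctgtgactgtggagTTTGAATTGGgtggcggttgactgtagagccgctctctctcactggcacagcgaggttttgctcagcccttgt
CDC20, chr1:43358731-43359030, plus strand: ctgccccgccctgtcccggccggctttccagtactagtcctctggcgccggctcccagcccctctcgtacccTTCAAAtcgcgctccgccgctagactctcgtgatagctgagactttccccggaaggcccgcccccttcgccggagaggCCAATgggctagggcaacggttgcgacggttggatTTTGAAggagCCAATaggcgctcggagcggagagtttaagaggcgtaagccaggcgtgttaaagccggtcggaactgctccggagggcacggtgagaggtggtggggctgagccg
All 5 windows held at least 1 CHR and 1 CCAAT box, CDC20 included. The CCNB1 window, not printed, held 2 CCAAT boxes and no CHR by these letters.

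Over the 3 lists of mitotic genes used below (entry, kinetochore, spindle), 33 of the 40 members that were lower at 12 h had a RefSeq promoter. A CHR was found in 26 of the 33 (78.8%). Of the 57 matched members that did not pass the test, 32 (56.1%) held one. Among genes lower at 12 h outside those lists the share was 24.3% of 378, among the replication licensing and G1/S genes 10.0% of 50, and 16.6% among all 27305 promoters supplied. CCAAT boxes were spread differently: 69.7% of the mitotic genes that were lower, 61.4% of those that did not pass, 60.0% of the G1/S genes and 35.7% of all promoters. An E2F site (TTTGGCGC, TTTCCCGC or TTTCGCGC, either strand) was in 52.0% of the G1/S promoters and 2.79% of all. These are counts of letters in a window and not of bound sites.

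**Figure D1:**
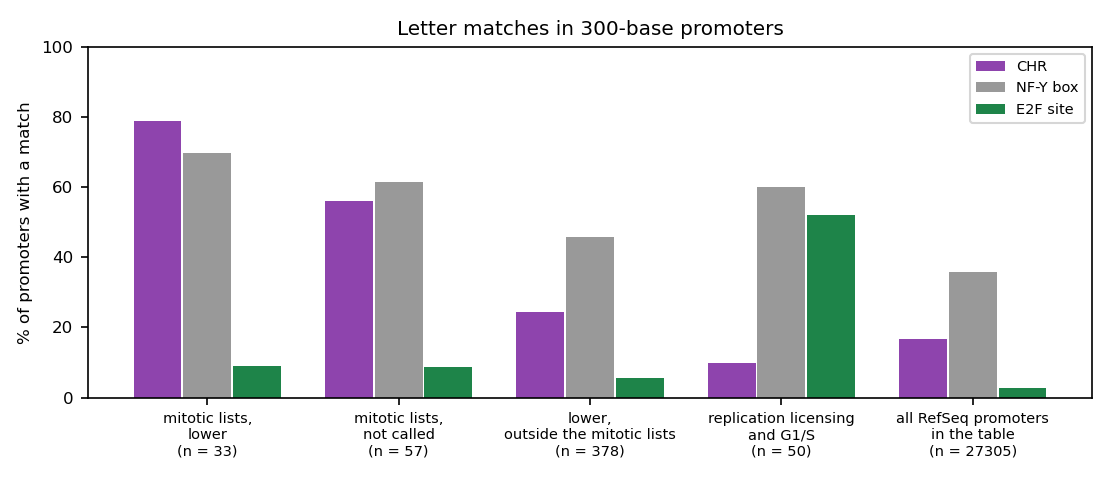
Share of 300-base RefSeq promoters, in percent (vertical axis, from 0), with a letter match to the CHR, the NF-Y (CCAAT) box or the E2F site, for 5 gene sets whose size stands under each. The CHR bar is 78.8% for mitotic genes lower at 12 h and 10.0% for G1/S genes, while the E2F bar is 52.0% for G1/S genes.

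The 8 libraries held 17839275 to 22233409 reads counted to genes, and 16043 to 16398 genes were detected in each. Noradrenergic neuroblastoma markers (PHOX2A, HAND2, GATA3, ISL1, DBH, DDC, CHGB) were present, but TH, the first enzyme of catecholamine synthesis, lay between 0 and 0.178 CPM (counts scaled to library size). SOX10, a Schwann lineage factor, was at 0 in all 8 libraries. Some mesenchymal genes differed by replicate number: LUM, a collagen-binding proteoglycan, had 6.51 and 32.7 CPM at 12 h against 5.1 and 35.7 at 8 h in Tet plus. The ERCC spike-in took 2.52% to 4.25% of counts at 12 h, against 1.37% to 2.11% at 8 h, higher at 12 h in 4 of 4 same-arm same-replicate pairs (mean log2 difference 0.91 ± 0.49, SD; 2-sided exact permutation p = 0.125, the smallest that 4 pairs allow). Scaled to the spike-in, the median gene moved by -0.92 on the log2 scale in both arms, by -0.65 in Tet plus and by -1.21 in Tet minus. All directions given here are therefore relative to the gene counts of a library. In bulk RNA, fewer cells in a phase and less RNA per cell cannot be told apart.

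MYCN, the target of the hairpin, had 1076 and 1109 CPM at 12 h against 1007 and 1156 at 8 h in Tet plus. In Tet minus it had 1497 and 1460.1 CPM at 12 h against 1198 and 1147 at 8 h. The arms stood apart at 12 h but overlapped at 8 h. Over both arms the change at 12 h was 0.18 (SE 0.08, adjusted p = 0.215), so MYCN itself did not pass the test between the times, and the difference between its changes in the arms (-0.32) did not pass either (adjusted p = 0.999). Reads of its antisense partner MYCNOS may share these counts, since the strand setting of the counting is not given.

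At 12 h, 331 genes were higher and 494 lower than at 8 h over both arms, of 14004 tested (5.89% called: 2.36% higher and 3.53% lower; edgeR quasi-likelihood test with arm and replicate number as terms, Benjamini-Hochberg adjusted p below 0.05). Most changes were small: 37 of the higher genes and 34 of the lower ones moved at least 2-fold. Within Tet plus 52 genes were higher and 142 lower (1.39% called: 0.371% and 1.01%), and within Tet minus 124 were higher and 275 lower (2.85% called: 0.885% and 1.96%). The count over both arms ranged from 331 (without P8-1) to 1257 (without P8-2), and fell to 338, 348, 390 and 514 without P12-1, M12-2, M8-2 and M8-1. Without the replicate term 40 genes were called over both arms (4 higher, 36 lower), 0 in Tet plus and 14 in Tet minus, while 1738 and 2067 passed in those arms at an unadjusted p below 0.05 with the term.

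Of the genes called in both arms, 94 of 98 moved the same way; they made up 50.5% of the Tet plus calls and 24.6% of the Tet minus calls. The 4 exceptions were histone genes (HIST1H2AC, HIST1H2BG, HIST2H2BE and HIST3H2BB). All 825 genes called over both arms had the same sign in each arm, and 793 in all 4 same-arm same-replicate pairs, counts that the joint fit favours by its construction. Of the 494 lower genes, 325 fell further in Tet minus. Across the 14004 genes, which are not independent replicates and share 2 lanes, the changes of the arms correlated with Pearson r = 0.47 and Spearman rho = 0.45. The difference between the arms' changes, tested directly, was called for 44 genes (0.314%): 8 with the higher change in Tet plus (0.0571%) and 36 with the lower (0.257%). Of the 44, 34 were replication-dependent histones. Without M8-1, M8-2, P8-2, P12-2, P12-1 and P8-1 in turn, 0, 1, 21, 29, 76 and 103 genes were called, and 0 without the replicate term; 599 passed at an unadjusted p below 0.05 in the full fit.

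**Figure D2:**
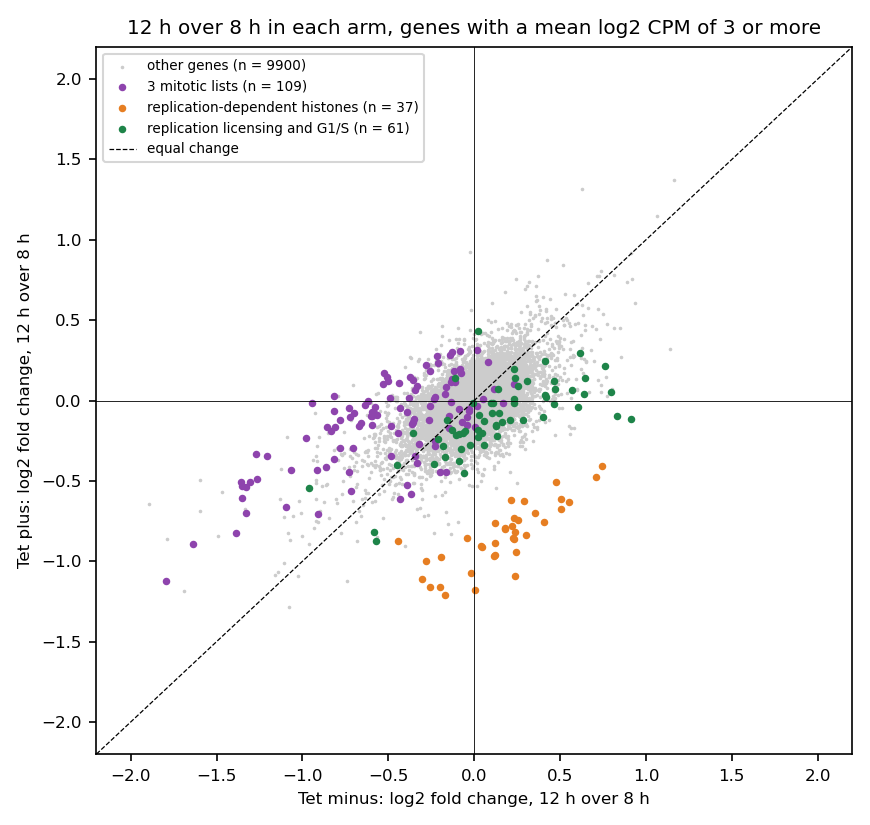
Each point is 1 of 10107 genes with a mean log2 CPM of 3 or more; axes give the log2 fold change of 12 h over 8 h in Tet plus (vertical) and Tet minus (horizontal), relative to gene counts, and the dashed line marks equal change. Mitotic genes sit mostly above the dashed line, 89 of 109 with the lower change in Tet minus, and histone genes sit below it, near -0.86 in Tet plus by their median over all 44 tested.

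Of 44 tested centromere and kinetochore genes, 15 were lower at 12 h over both arms (3.53% of all genes were), 0 higher and 29 did not pass, with a median change of -0.21 against 0.01 for all genes. In Tet plus 5 were lower (median -0.10), against 1.01% of all genes, and in Tet minus 16 (median -0.30), against 1.96%. The log2 change of the list's summed level was -0.15 in replicate 1 and 0.16 in replicate 2 of Tet plus, and -0.25 and -0.43 in those of Tet minus. HJURP, the chaperone that places CENP-A at centromeres, had 66.5 and 66.2 CPM at 12 h against 159.7 and 130.5 at 8 h in Tet plus, and 51.6 and 43.1 CPM at 12 h against 164 and 165 at 8 h in Tet minus. No 12 h library reached any 8 h library, and the change was -1.46 (SE 0.12, adjusted p = 2.54e-05). Its partner CENPA, the centromeric histone H3 variant, had 27.9 and 25.6 CPM at 12 h against 58.9 and 41.2 at 8 h in Tet plus, and 19.2 and 17.5 CPM at 12 h against 58 and 56.5 at 8 h in Tet minus. It changed by -1.26 (SE 0.13, adjusted p = 0.000162), also without overlap between the times. CENPL, a member of the constitutive centromere network, fell by 0.81 and SKA1, of the complex that couples kinetochores to microtubules, by 0.59 on the log2 scale (SE 0.08 for each). NDC80, the microtubule anchor, fell by 0.75 and TTK, the checkpoint kinase MPS1, by 0.60. The list's lower count dropped to 7 without P8-1 and to 8 without P12-1, M8-2 or M12-2.

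Among 26 regulators of mitotic entry, 11 were lower at 12 h and 0 higher over both arms (median -0.27). Of all genes, 3.53% were lower and 2.36% higher. In Tet plus 4 were lower (1.01% of all genes were) and in Tet minus 14 (1.96%). CDK1, the mitotic kinase, had 174 and 179 CPM at 12 h against 268 and 234 at 8 h in Tet plus, and 123 and 119 CPM at 12 h against 272 and 349 at 8 h in Tet minus. All 12 h libraries lay below all 8 h libraries, with a change of -0.93 (SE 0.14, adjusted p = 0.00246); the fall was smaller in Tet plus (-0.51) than in Tet minus (-1.36), and that difference passed its own test (adjusted p = 0.0402). BORA, the activator of Aurora A toward PLK1, had 18.7 and 21.9 CPM at 12 h against 31.5 and 29.7 at 8 h in Tet plus, and 13 and 16.6 CPM at 12 h against 30.6 and 45.5 at 8 h in Tet minus. It changed by -0.97 (SE 0.14, adjusted p = 0.0018). CCNF, which as cyclin F serves a ubiquitin ligase, had 221 and 209 CPM at 12 h against 348 and 332 at 8 h in Tet plus, and 200.4 and 169 CPM at 12 h against 379 and 411 at 8 h in Tet minus. WEE1, the kinase that restrains CDK1, was also lower (-0.52), as was CCNA2, cyclin A2 (-0.54). AURKA, the Aurora A kinase, changed by -0.33 in Tet plus and -1.27 in Tet minus, and the arms differed (adjusted p = 0.0152). Without M12-2, 7 members were lower.

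Spindle, motor and cytokinesis genes fell in 14 of 39 cases over both arms (3.53% of all genes did), with 0 higher (median -0.33). In Tet plus 4 were lower (median -0.09), against 1.01% of all genes. In Tet minus 24 were lower (median -0.58), against 1.96% of all genes. The log2 change of their summed level was -0.17 in replicate 1 and 0.14 in replicate 2 of Tet plus, and -0.43 and -0.57 in those of Tet minus. FAM83D, a spindle protein that recruits casein kinase, had 118 and 112 CPM at 12 h against 214 and 194 at 8 h in Tet plus, and 99.1 and 80.5 CPM at 12 h against 226 and 243 at 8 h in Tet minus. The times did not overlap, and the change was -1.11 (SE 0.11, adjusted p = 8.8e-05). CKAP2L, a spindle pole protein, changed by -1.01 (SE 0.12, adjusted p = 0.000446). The minus-end motor KIFC1 had 127 and 107 CPM at 12 h against 189 and 152 at 8 h in Tet plus, and 81.4 and 59.9 CPM at 12 h against 196 and 158 at 8 h in Tet minus. Its change of -0.54 in Tet plus differed from -1.33 in Tet minus (adjusted p = 0.0109). The same held for the central spindle motor KIF23 (-0.51 in Tet plus, -1.31 in Tet minus, adjusted p = 0.0332) and for KIF18A, which dampens chromosome movements (-0.35 in Tet plus, -1.20 in Tet minus, adjusted p = 0.0401). At an unadjusted p below 0.05, the Tet plus change was the higher one for 31 of the 39 and the lower one for 0. The lower count was 9 without any 1 of P8-1, M8-2, M12-1 or M12-2, and 26 without P8-2 or P12-2.

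Chromosome condensation, cohesion and passenger complex genes were lower in 9 of 27 cases (33.3%, against 3.53% of all genes), with 0 higher. Their median was -0.15, and the counts at an unadjusted p below 0.05 were 12 and 0. CDCA2, which brings a phosphatase to anaphase chromosomes, had 155 and 175 CPM at 12 h against 317 and 276 at 8 h in Tet plus, and 121 and 119 CPM at 12 h against 314 and 362 at 8 h in Tet minus. All 12 h values were below all 8 h values, and the change was -1.17 (SE 0.12, adjusted p = 0.000115). CDCA8, the passenger complex subunit borealin whose promoter is printed above, had 124 and 109 CPM at 12 h against 212 and 139 at 8 h in Tet plus, and 81 and 60.3 CPM at 12 h against 222 and 169.6 at 8 h in Tet minus. The change was -0.57 in Tet plus and -1.47 in Tet minus (adjusted p of the difference = 0.00884). ESCO2, an acetyltransferase that establishes cohesion, fell in Tet plus (-0.82) and Tet minus (-0.77), with a difference between the arms of -0.05 (SE 0.17) that did not pass. CDCA5, the cohesin protector sororin, fell by 0.42 in Tet plus and by 0.51 in Tet minus. Without M8-2, or without M12-2, 5 members were lower.

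Of 20 tested genes of the APC/C and separase list, 3 were lower (15%, against 3.53% of all genes) and 0 higher (median 0.01). At an unadjusted p below 0.05 these counts were 4 and 2, and DESeq2 called 1 higher. FBXO5, the APC/C inhibitor EMI1, had 67.8 and 72.9 CPM at 12 h against 139.8 and 121 at 8 h in Tet plus, and 72.4 and 83.3 CPM at 12 h against 141 and 163 at 8 h in Tet minus. It changed by -0.93 (SE 0.08, adjusted p = 3.12e-05), with the times apart in both arms. FZR1, the activator CDH1, changed by -0.58 (SE 0.09, adjusted p = 0.00301). ESPL1, separase, changed by -0.27 and lost its call without any of 6 single libraries. Nuclear envelope genes were lower in 2 of 22 cases (9.09%, against 3.53% of all genes). They were SUN2, an inner membrane linker (-0.56, adjusted p = 0.012), and the nucleoporin NUP50 (-0.27, adjusted p = 0.0438). Without M8-2 or without M12-2, 0 were lower.

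Mitotic genes gave fewer lower calls in Tet plus than in Tet minus, and the name of mitotic exit was borne out for only part of them. Over the 3 mitotic lists and both arms, 40 of 109 genes (36.7%, against 3.53% of all genes) were lower and 0 higher (65 and 1 at an unadjusted p below 0.05; DESeq2 also called 0 higher). In Tet plus 13 of the 109 were lower (11.9%, against 1.01% of all genes) and in Tet minus 54 (49.5%, against 1.96%), with 0 higher in either arm by edgeR or DESeq2 (6 in Tet plus and 0 in Tet minus at an unadjusted p below 0.05). The both-arms count was 24 without P8-1 or M12-2, 26 without M8-2 and 64 without P8-2. Without P8-1 or P12-1 the Tet plus count was 5, and without M8-2 the Tet minus count was 22; without the replicate term the counts were 5 over both arms, 0 in Tet plus and 7 in Tet minus. The difference between the arms was called for 5 of the 109, against 0.314% of all genes. Over both arms 69 did not pass, and several classical late mitotic genes, singled out after their values were seen, did not either. CDC20 had 509 and 421 CPM at 12 h against 434 and 331 at 8 h in Tet plus, and 472 and 372 CPM at 12 h against 475 and 414 at 8 h in Tet minus. Its times overlapped in both arms and its change was 0.10 (SE 0.08, adjusted p = 0.506). CCNB1, cyclin B1, had 499 and 546 CPM at 12 h against 508 and 457 at 8 h in Tet plus, and 462 and 494 CPM at 12 h against 586 and 712 at 8 h in Tet minus. The change over both arms was -0.16 (SE 0.11, adjusted p = 0.408). PLK1 (-0.31, adjusted p = 0.115), TOP2A (-0.26, adjusted p = 0.22), KIF20A (-0.11, adjusted p = 0.55) and PTTG1, securin (0.26, adjusted p = 0.0591), did not pass over both arms. In Tet minus alone PLK1 (-0.62, adjusted p = 0.00247) and TOP2A (-0.56, adjusted p = 0.0217) were lower, and in Tet plus alone none of these 6 passed. UBE2C, the APC/C ubiquitin-conjugating enzyme, had 217 and 159 CPM at 12 h against 210.5 and 143 at 8 h in Tet plus, and 149 and 96.8 CPM at 12 h against 225 and 171 at 8 h in Tet minus. Its change was 0.10 in Tet plus (adjusted p = 0.766), it fell in Tet minus (-0.70, adjusted p = 0.000413), and the arms differed (adjusted p = 0.0121). The contrast is therefore named here by its times.

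Libraries of 10 h, from the same lanes, place the highest mean of most mitotic genes at 10 h in Tet plus and at 8 h in Tet minus. Of the 109 mitotic genes, 29 had their highest mean CPM at 8 h, 77 at 10 h and 3 at 12 h in Tet plus. In Tet minus, 91 were highest at 8 h, 14 at 10 h and 4 at 12 h. CDK1 had 268 and 234 CPM at 8 h, 272 and 288 at 10 h and 174 and 179 at 12 h in Tet plus. In Tet minus it had 272 and 349 CPM at 8 h, 222 and 218 at 10 h and 123 and 119 at 12 h. HJURP instead declined at each step in both arms, with 10 h values of 125 and 122 CPM in Tet plus and 95.5 and 93.5 CPM in Tet minus. Summed over the entry list, Tet plus held 5321 and 4555 CPM at 8 h, 5708 and 5811 at 10 h and 4881 and 4768 at 12 h, with the highest at 10 h in both replicates. The Tet minus sums were 5789 and 6112 CPM at 8 h, 5338 and 5252 at 10 h and 4228 and 3889.9 at 12 h, lower at each step. Among all 494 genes lower at 12 h, the 10 h mean lay between the 8 h and 12 h means for 404 in Tet plus, 437 in Tet minus and 357 in both. These peak times were counted from means of 2 libraries and were not tested.

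**Figure D3:**
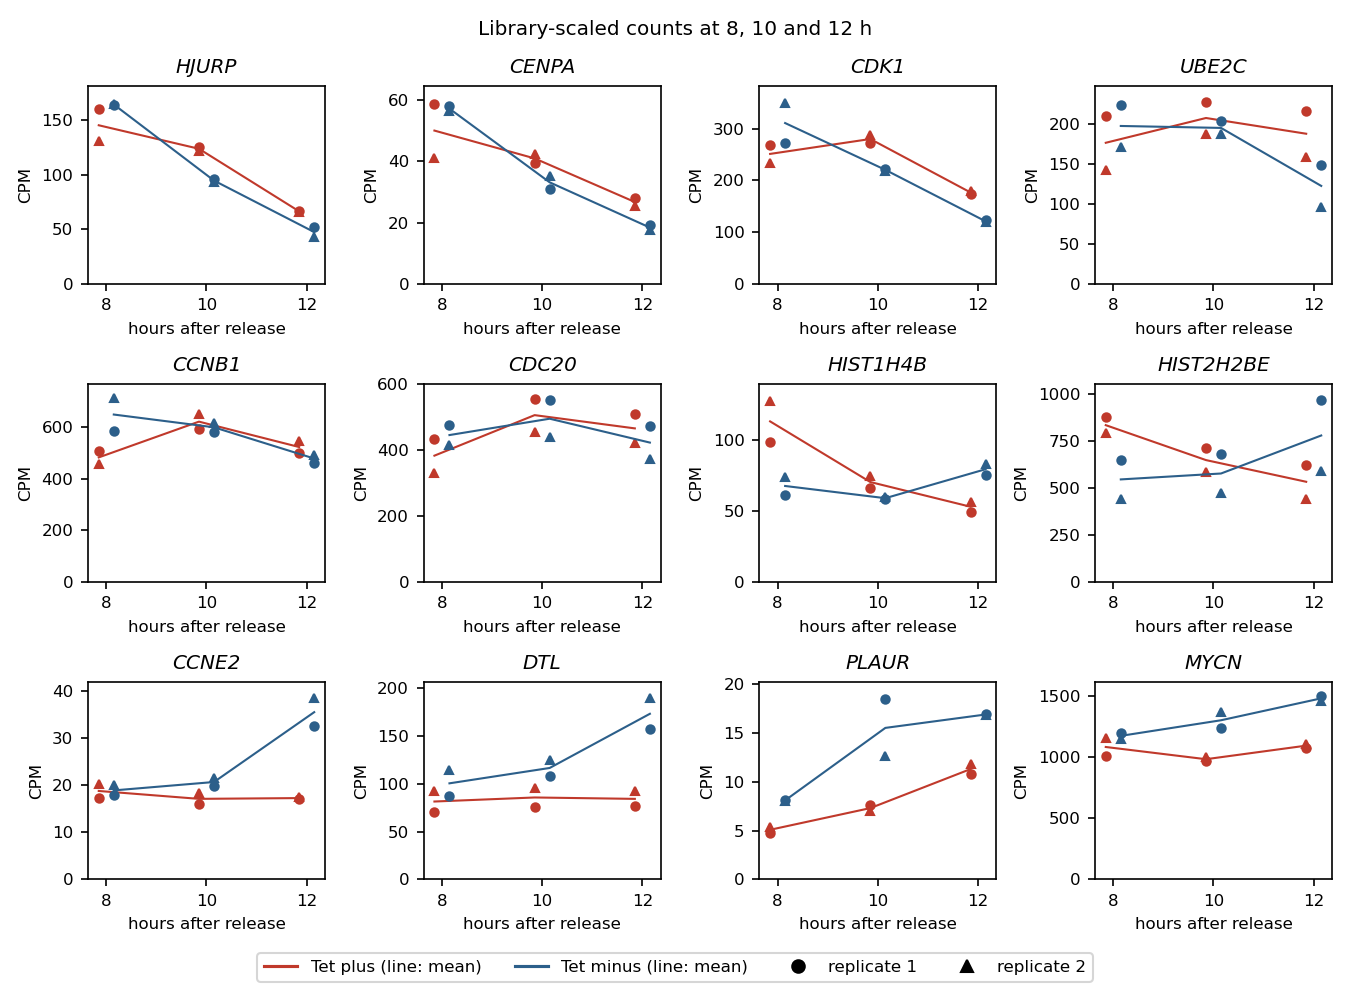
Each panel gives the CPM of 1 gene (vertical axis, from 0) at 8, 10 and 12 h after release, with Tet plus (red) drawn left of Tet minus (blue); circles and triangles are replicates 1 and 2 and lines join means. HJURP and CENPA fall in both arms, the CDK1 mean falls after 10 h in Tet plus and from 8 h on in Tet minus, and HIST1H4B and CCNE2 take different courses in the arms.

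Replication licensing and G1/S genes gave more higher calls in Tet minus than in Tet plus. Of 61 tested, 5 were higher and 6 lower over both arms (8.2% and 9.84%, against 2.36% and 3.53% of all genes), with a median of 0.02. In Tet plus 0 were higher and 3 lower (median -0.12), where 0.371% and 1.01% of all genes were. At an unadjusted p below 0.05 these counts were 3 and 15. In Tet minus 13 were higher and 2 lower (median 0.11), where 0.885% and 1.96% of all genes were. The Tet plus change was below the Tet minus change for 55 of 61. CCNE2, cyclin E2, had 17 and 17.6 CPM at 12 h against 17.3 and 20.4 at 8 h in Tet plus, and 32.6 and 38.6 CPM at 12 h against 17.9 and 20.0 at 8 h in Tet minus. Only the Tet minus 12 h libraries stood apart; the difference between the arms' changes was -1.03 (SE 0.17, adjusted p = 0.00856). DTL, which targets CDT1 for destruction, had 76.3 and 92 CPM at 12 h against 70.0 and 92.7 at 8 h in Tet plus, and 157 and 189 CPM at 12 h against 86.9 and 114 at 8 h in Tet minus. Its difference was -0.74 (SE 0.14, adjusted p = 0.0186). No other of the 61 was called for a difference between arms. E2F1, the S phase activator, had 188 and 117 CPM at 12 h against 134 and 108 at 8 h in Tet plus, and 244 and 168 CPM at 12 h against 162 and 108 at 8 h in Tet minus. It was higher over both arms (0.46, SE 0.08, adjusted p = 0.00633), and CDT1, a licensing factor, was too (0.50). The repressors E2F7 (-0.72) and E2F8 (-0.70) and DBF4, the activator of the CDC7 kinase (-0.75), were lower. The higher count lay between 1 and 16 over the 8 fits that left out a library, and moved by over 1.5 times in each; the lower count was 3 without P8-1 or P12-1.

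Replication-dependent histones made up most of the genes whose change differed between the arms. Of 73 in the list, 44 passed the filter on low counts. Among these, HIST2H2BA and HIST2H2BC carry the RefSeq pseudogene symbols H2BP1 and H2BC20P, and neither was called for an arm difference. In Tet plus 37 of the 44 were lower at 12 h and 0 higher (median -0.86), against 1.01% and 0.371% of all genes. In Tet minus 0 were lower and 6 higher (median 0.18), against 1.96% and 0.885% of all genes. These changes are relative to gene counts. At an unadjusted p below 0.05, Tet plus had 40 lower and 0 higher, and Tet minus 8 lower and 14 higher. The difference between the arms' changes was called for 34 of 44, all with the lower change in Tet plus, against 0.257% of all genes in that direction. Summed over the list, Tet plus held 7414 and 6735 CPM at 12 h against 11724 and 13511 at 8 h, and Tet minus 10175 and 9115 CPM at 12 h against 8877 and 8393 at 8 h. Of the 4 groups, Tet plus at 12 h stood lowest and Tet plus at 8 h highest, in both replicates. At 10 h the sums were 9127 and 9313 CPM in Tet plus and 7668 and 7248 CPM in Tet minus. HIST1H2BM was at 0 in both Tet plus 12 h libraries; with it at the bound set by 3 counts over the group the Tet plus median is also -0.86.

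HIST1H4B, an H4 gene, had 49.6 and 56.3 CPM at 12 h against 98.5 and 128 at 8 h in Tet plus, and 75.5 and 83.3 CPM at 12 h against 61.4 and 73.8 at 8 h in Tet minus. The difference between the changes was -1.33 (SE 0.14, adjusted p = 0.000506). HIST1H3H, an H3 gene, had 209.9 and 207 CPM at 12 h against 342 and 468 at 8 h in Tet plus, and 319.5 and 339 CPM at 12 h against 249 and 312 at 8 h in Tet minus. Here the difference was -1.18 (SE 0.17, adjusted p = 0.00357). HIST1H4H (-1.04), HIST1H2BJ (-1.05), HIST1H2BF (-1.14) and HIST1H2BL (-1.08) gave like differences, each with an adjusted p of 0.00357. HIST2H2BE, one of the 4 genes called in opposite directions, had 625 and 441 CPM at 12 h against 878 and 793 at 8 h in Tet plus, and 970.0 and 591 CPM at 12 h against 648 and 444 at 8 h in Tet minus. The number of histone genes called for an arm difference fell to 0 without M8-1, to 1 without M8-2 and to 20 without P8-2, and to 0 without the replicate term. The HIST1H4B difference itself lay between -1.41 and -1.248 over the 8 fits that left out a library. Single histone genes share sequence, so their separate values are uncertain.

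Stem-loops are printed for 4 of these genes because they define mRNAs of this class. They were read from GENCODE v29 transcripts (GRCh38), with the 4 loop bases in capitals between the paired arms. These annotated transcripts run on past the stem-loop, by 86 bases for HIST1H4B, 18 for HIST1H4H, 769 for HIST1H3H and 40 for HIST1H2BL.
HIST1H4B, chr6:26026901-26026916, minus strand: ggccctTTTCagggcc
HIST1H4H, chr6:26285131-26285146, minus strand: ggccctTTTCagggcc
HIST1H3H, chr6:27810516-27810531, plus strand: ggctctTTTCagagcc
HIST1H2BL, chr6:27807484-27807499, minus strand: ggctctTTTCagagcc
Such a 16-base stem-loop was found for 19 of the 44 tested histone genes, in 3 distinct forms. The arm difference was called for 15 of those 19 and for 19 of the 25 with no match in the annotated transcript.

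**Figure D4:**
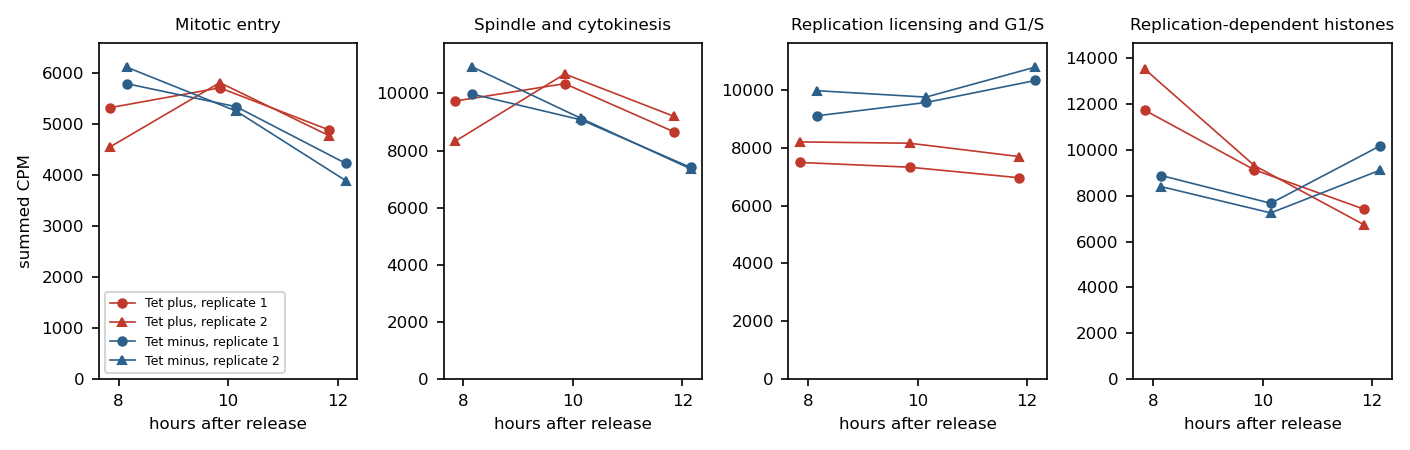
Summed CPM of 4 gene lists (vertical axes, from 0) in each library at 8, 10 and 12 h after release, with Tet plus in red left of Tet minus in blue and lines joining libraries of 1 replicate number. Histone sums at 12 h are 7414 and 6735 CPM in Tet plus and 10175 and 9115 CPM in Tet minus, the reverse of the order at 8 h.

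Outside the lists, the genes with the largest falls included GEM, a small GTP-binding protein, with 9.82 and 12.5 CPM at 12 h against 23.1 and 27.8 at 8 h in Tet plus, and 7.81 and 9.16 CPM at 12 h against 25.1 and 29.9 at 8 h in Tet minus. No 12 h value reached an 8 h value, and the change was -1.43 (SE 0.11, adjusted p = 1.52e-05). FAM72D had 41.4 and 40.3 CPM at 12 h against 95.9 and 56.4 at 8 h in Tet plus, and 34.6 and 28.6 CPM at 12 h against 119 and 99.5 at 8 h in Tet minus; it is 1 of a family of near-identical copies, so its value of -1.32 is uncertain as to the copy. TNFAIP8L1 fell by 0.65 in Tet plus and by 1.89 in Tet minus, a difference of 1.246 (SE 0.19, adjusted p = 0.00401). HMOX1, heme oxygenase 1, changed by -1.19 (SE 0.18, adjusted p = 0.0018), with 15.6 and 17 CPM at 12 h against 21.6 and 66 at 8 h in Tet plus, so 1 library at 8 h stood far above the other. PIF1, a DNA helicase, fell by 1.13 and CDR2, a cytoplasmic antigen of paraneoplastic disease, by 1.12 (-1.09 in Tet plus and -1.16 in Tet minus).

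PLAUR, the urokinase receptor, was the highest named riser. It had 10.8 and 11.8 CPM at 12 h against 4.79 and 5.38 at 8 h in Tet plus, and 17 and 16.8 CPM at 12 h against 8.12 and 8.08 at 8 h in Tet minus. All 12 h libraries lay above the 8 h libraries of their arm, and the change was 1.10 (SE 0.10, adjusted p = 4.19e-05). DLL1, a Notch ligand, had 43.9 and 20.0 CPM at 12 h against 22 and 14 at 8 h in Tet plus, and 27.9 and 9.93 CPM at 12 h against 15.5 and 4.75 at 8 h in Tet minus. Replicate 1 lay above replicate 2 at both times, and it was higher at 12 h within each lane and arm (0.83, SE 0.13, adjusted p = 0.00263). ZNF117, a zinc finger gene, changed by 0.74 (SE 0.10, adjusted p = 0.000853), and C12orf34 by 0.74 (SE 0.15, adjusted p = 0.0104), a call lost without 1 library. The other 6 of the 10 were small nucleolar and Cajal body RNAs.

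Among G1 cyclins, inhibitors of cyclin-dependent kinases and pocket proteins, 4 of 22 were lower (18.2%, against 3.53% of all genes) and 0 higher. At an unadjusted p below 0.05 these counts were 6 and 2, and DESeq2 called 1 higher. CDKN2D, which binds CDK4 and CDK6, had 10.1 and 6.82 CPM at 12 h against 23.3 and 12.8 at 8 h in Tet plus, and 4.81 and 4.14 CPM at 12 h against 12.8 and 7.47 at 8 h in Tet minus. It changed by -1.10 (SE 0.12, adjusted p = 0.00016). CDKN2C, of the same family, had 73.5 and 71.9 CPM at 12 h against 120.1 and 105 at 8 h in Tet plus, and 54.8 and 48.4 CPM at 12 h against 83.6 and 84.9 at 8 h in Tet minus, and CDKN1B, p27, changed by -0.63 (SE 0.07, adjusted p = 0.000364). CCNG2, cyclin G2 (-0.37), lost its call without any of 6 single libraries. CDKN1A, p21, did not pass (0.04, adjusted p = 0.911). In the MYC network, 1 of 13 was higher and 1 lower (7.69% each, against 2.36% and 3.53% of all genes). MNT, a MAX partner that opposes MYC, was higher (0.58, SE 0.12, adjusted p = 0.0129, lost without 2 libraries). MXD3, another such partner, was lower. It had 53.3 and 39.2 CPM at 12 h against 95.6 and 68.3 at 8 h in Tet plus. In Tet minus it had 28.2 and 21.8 CPM at 12 h against 58.1 and 47.9 at 8 h. MXD3 changed by -0.95 (SE 0.08, adjusted p = 2.54e-05), with no overlap within an arm.

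Immediate early genes went both ways, 5 higher and 4 lower of 31 (16.1% and 12.9%, against 2.36% and 3.53% of all genes). IER5 (-0.67), DUSP6 (-0.99) and DUSP4 (-0.41), the last 2 being phosphatases that act on ERK, were lower, and PPP1R15A, which restores translation after stress, was higher (0.47). EGR1 had 18 and 1.44 CPM at 12 h against 5.64 and 1.84 at 8 h in Tet plus. In Tet minus it had 14.1 and 2.84 CPM at 12 h against 8.02 and 0.94 at 8 h. Its replicate numbers differed more than its times, and lane and biological replicate cannot be told apart here. In Tet plus EGR1 was higher at 12 h in replicate 1 alone. The higher count lay between 1 and 11 when single libraries were left out: 1 without P8-1, P12-1 or M12-2, 2 without either Tet minus 8 h library, and 11 without P8-2. Of 23 p53 targets, 3 were lower and 1 higher (13% and 4.35%, against 3.53% and 2.36% of all genes). POLH, a translesion polymerase, had 40.5 and 47.3 CPM at 12 h against 76 and 75.3 at 8 h in Tet plus, and 32.9 and 38.3 CPM at 12 h against 64.5 and 72.1 at 8 h in Tet minus, a change of -0.86 (SE 0.07, adjusted p = 2.54e-05). FAS, the death receptor, changed by -0.88. ZMAT3 (-0.35) and PLK2 (0.42) lost their calls without 7 and 4 of the libraries in turn.

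Other lists gave few calls. None of 51 ribosome biogenesis genes passed by edgeR over both arms (median 0.08), where 5.89% of all genes did. At an unadjusted p below 0.05, 9 were higher and 1 lower. DESeq2 called 2 higher. TSR1 had the smallest adjusted p (0.0541, change 0.22). Among 24 genes of noradrenergic identity, 2 were higher (8.33%, against 2.36% of all genes). STMN4 (0.46) was among them, a call lost without 5 of the libraries in turn. Mesenchymal, fibroblast and Schwann markers held 1 higher gene of 13 (7.69%, against 2.36% of all genes), PRRX1 (0.40, SE 0.07, adjusted p = 0.00553). Their summed level was 380 to 754 CPM at 12 h and 354 to 701 CPM at 8 h, and followed the replicate number. Epithelial, immune and endothelial markers, 4 tested, gave 0 calls in edgeR (1 at an unadjusted p below 0.05, 0 in DESeq2) and summed to 4.0004 to 5.97 CPM at 12 h, against 2.63 to 5.01 CPM at 8 h. PECAM1, the endothelial marker, was at 0 in 7 of the 8. The part of other cells in any result was not tested.

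**Figure D5:**
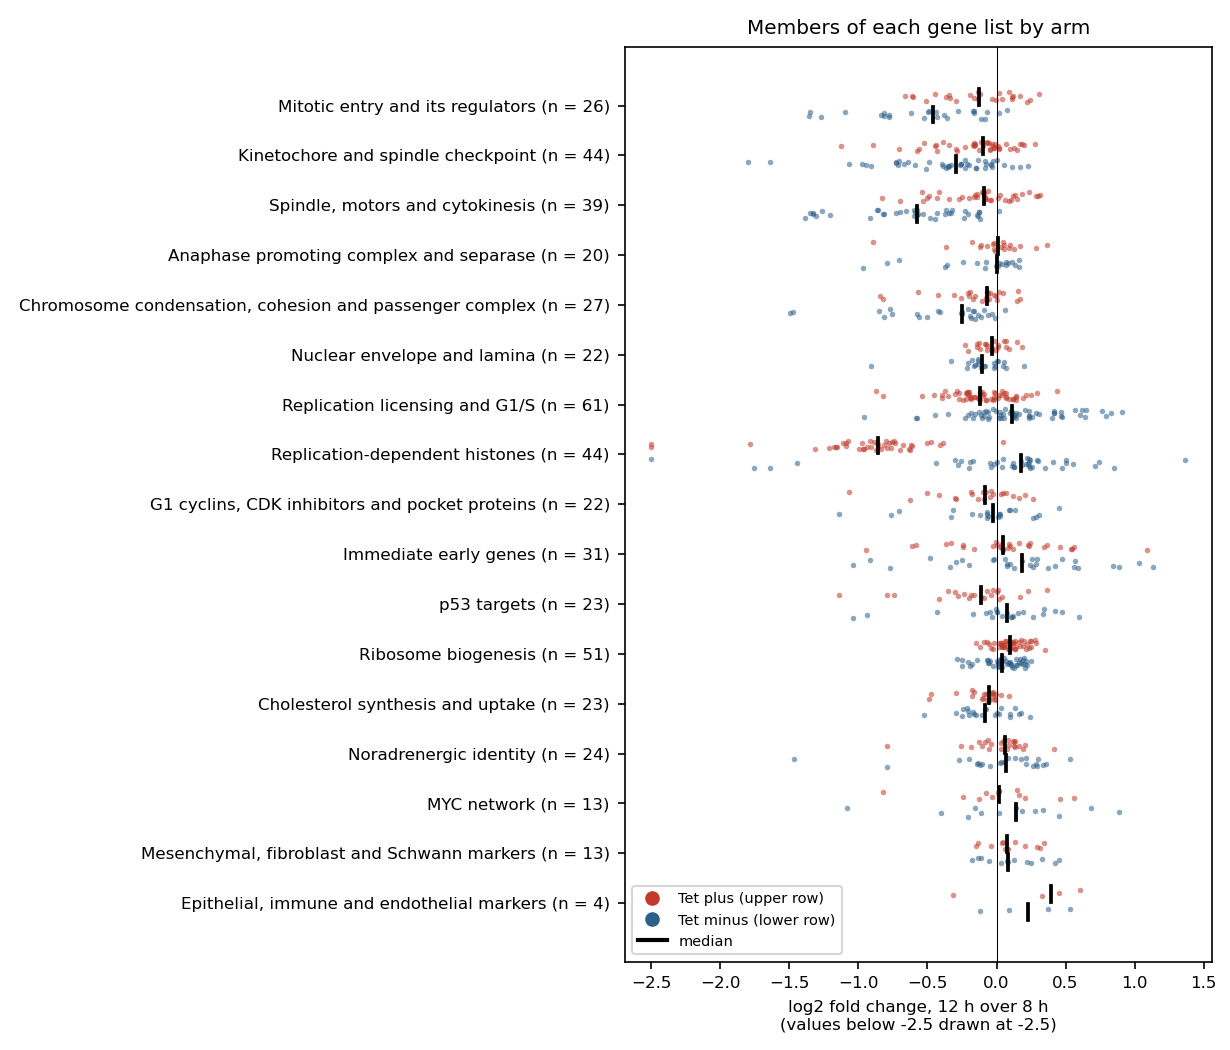
Log2 fold change of 12 h over 8 h, relative to gene counts (horizontal axis), for every tested member of 17 gene lists; red points (upper row) are Tet plus, blue points (lower row) Tet minus, and black bars medians. The histone medians are -0.86 in Tet plus and 0.18 in Tet minus, and the spindle medians -0.09 and -0.58.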

How the data were processed

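Per the labels' protocols, total RNA with ERCC mix spike-in was depleted of ribosomal RNA and made into directional libraries. The table deposited by the authors holds raw counts as whole numbers for each gene. TopHat2 2.0.5, HTSeq and hg19 were used, per the submitters' processing notes; annotation and strand setting are not given. Of 23367 gene rows, 3929 were at 0 in all 44 libraries; the 92 ERCC rows were kept out of library sizes and tests.

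The quasi-likelihood test of edgeR 4.0.16 (R 4.3.3) was run on the 8 libraries with TMM factors and filterByExpr by group. Both-arms changes used arm and replicate number as terms (4 residual degrees of freedom), and changes within an arm and their difference used 4 group means plus replicate number (3 degrees). The Benjamini-Hochberg adjustment ran over the 14004 genes tested (threshold 0.05). CPM uses TMM library sizes, and mean log2 CPM a prior count of 2. SE is the size of the log2 change divided by the square root of its F statistic in the quasi-likelihood test, and was not estimated separately. The replicate number pairs the samples, since each is 1 lane in the labels; same-numbered deviations correlated at 0.58 to 0.82 in 6 pairs of groups. Replicates of a group differed beyond sampling noise (24.8 to 46.0 chi-square units per gene). The quasi-likelihood fit shares information on spread across genes. The p-values therefore rest on the spread between these samples over all genes, and not on each gene's few degrees of freedom alone.

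Members and the 17 gene lists were chosen with earlier results of these data known. Named genes are MYCN, the 10 highest and 10 lowest called changes with mean log2 CPM of at least 3 and 1 sign in all 4 pairs, up to 4 members per list by adjusted p, and the 6 smallest p for the arm difference; others were chosen after their values were seen. On simulated counts of 14004 genes, the both-arms test recovered 82.1% of 1.5-fold and 95.5% of 2-fold changes, and the arm-difference test 17.9% and 74.2%. They also called 16 and 10 genes that had been left unchanged. The simulated counts held no lane or arm effect, unlike the libraries. Alternatives were DESeq2 1.42.0 and its size factors, no filter, no replicate block, all 44 libraries, ERCC scaling, and leaving out libraries. Promoters (RefSeq, GRCh38.p14) matched 10677 of 14004 symbols. Motif shares of gene sets with under 80% matched, the tested genes as a whole among them, are not reported. The full set of promoters supplied includes genes that were not tested. Results of some list members are not reported here.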

Additional observations from a re-analysis of the deposited data

Results flagged for a closer look

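By a direct test, the change between 8 and 12 h differed between the arms for 34 of the 44 tested replication-dependent histones. Of all genes, 0.314% passed that test. The Tet plus change minus the Tet minus change was -1.33 on the log2 scale for HIST1H4B, -1.18 for HIST1H3H, -1.14 for HIST1H2BF, -1.08 for HIST1H2BL, -1.05 for HIST1H2BJ and -1.04 for HIST1H4H. Outside the histones, 10 genes passed the same test. Cyclin E2 (CCNE2) at -1.03 and DTL at -0.74 did not pass in Tet plus and rose in Tet minus. The other 8 had the lower change in Tet minus, with differences of 1.246 for TNFAIP8L1, 0.94 for AURKA, 0.90 for CDCA8, 0.86 for KIF18A, 0.85 for CDK1, 0.80 for UBE2C, 0.80 for KIF23 and 0.79 for KIFC1. No gene passed this test without Tet minus 8 h replicate 1 (0 calls), and 1 passed without Tet minus 8 h replicate 2. No group has 4 or more libraries, so single stray samples were not looked for by a rule.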

How the results depend on the processing

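The both-arms count of 825 was 811 with DESeq2 size factors, 835 with DESeq2 and 1002 with no filter. With no replicate block it was 40 over both arms, 0 in Tet plus, 14 in Tet minus and 0 for the arm difference. In 1 model of all 44 libraries with no replicate block the counts were 278, 32, 121 and 0. Scaled to the ERCC spike-in they were 12741 (4 higher), 32, 12542 and 0. With no filter the Tet plus count was 360 and the arm-difference count 74 (44.6% higher); DESeq2 gave 69 for the arm differences (43.5% higher, against 18.2% in edgeR). Leaving out 1 library gave 331 to 1257 genes over both arms, 129 to 357 in Tet plus, 118 to 522 in Tet minus and 0 to 103 for the arm difference. The Tet plus count moved by over 1.5 times without Tet plus 8 h replicate 2 (129) or either Tet minus 12 h library (357 and 351), and the Tet minus count without either Tet minus 8 h library (136 and 118) or Tet minus 12 h replicate 1 (203). Within lane 5 (without replicate 1) 676 genes were called over both arms, and within lane 2 (without replicate 2) 2830; within 1 lane neither the change of 1 arm nor the arm difference can be tested.

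With no replicate block 55 named results lost their call and 42 did not change call; in the model of all 44 libraries 30 lost it, under DESeq2 2, under its size factors 1, with no filter 0, and without single libraries 1 to 15. None changed sign under no replicate block, all 44 libraries, DESeq2, its size factors or no filter. Alternatives for the mitotic lists by arm and for the small nucleolar RNAs were chosen after seeing the data; with no filter the Tet plus count of mitotic genes was 20. Under ERCC scaling 30 reversed, among them C12orf34 -0.21, CD44 -0.75, CD68 -0.48, DLL1 -0.12, E2F1 -0.48, EPCAM -0.72, FN1 -0.82, GATA3 -0.67, KRT8 -0.52, LUM -0.69, MLXIP -0.70, MNT -0.35, MRTO4 -0.71, MYCN -0.76, PHOX2A -0.74, PLK2 -0.51, PNO1 -0.72, PPP1R15A -0.46, PRRX1 -0.54, PTTG1 -0.66, SCARNA22 -0.14, SNORA16A -0.19, SNORA49 -0.17, SNORA8 -0.15, SNORD46 -0.048, STMN4 -0.44, TSR1 -0.71, UTP20 -0.71, ZNF117 -0.19. Without Tet minus 8 h replicate 2 EPCAM reversed to -0.073, and without single libraries or replicates it ranged from -0.34 (without replicate 2) to 0.63. CDH5 reversed to 0.056 without Tet plus 8 h replicate 2, in a range of -0.63 to 0.084 (without replicate 2). Both lie under 1 CPM. With 2 libraries per group, small changes are often missed: on simulated counts the arm-difference test recovered 17.9% of 1.5-fold changes. The causes of these shifts were not tested.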

Other observations

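Small nucleolar RNAs guide the modification of ribosomal RNA and are mostly cut from introns of host genes, and Cajal body RNAs do so for spliceosomal RNAs. The list of these RNAs was written after their values were seen, so it is a description. Of 216 tested, 47 were higher at 12 h over both arms (2.36% of all genes were), 0 lower and 169 did not pass (117 higher and 1 lower at an unadjusted p below 0.05 in edgeR), with a median change of 0.47 over both arms (0.60 in Tet plus and 0.30 in Tet minus). DESeq2 called 35 higher and 0 lower, and without the replicate term 0 were higher. In Tet plus 26 were higher (0.371% of all genes were) and in Tet minus 6 (0.885%). The both-arms count was 14 to 38 when single libraries were left out, the Tet plus count 6 (without replicate 2 at 8 h) to 57, and the Tet minus count 0 (without replicate 1 at 8 h) to 38. SNORD76 had 11.1 and 10.9 CPM at 12 h against 4.35 and 4.49 at 8 h in Tet plus, and 10.4 and 12 CPM at 12 h against 6.4 and 8.08 at 8 h in Tet minus. Its times did not overlap in either arm, and the change was 0.96 (SE 0.14, adjusted p = 0.00184). SNORD46 had 6.4 and 12.5 CPM at 12 h against 4.48 and 5.25 at 8 h in Tet plus, and 10.9 and 15.8 CPM at 12 h against 5.87 and 8.32 at 8 h in Tet minus, a change of 0.92 (SE 0.12, adjusted p = 0.000725). SCARNA22 changed by 0.80 and SNORA49 by 0.77, while the calls of SNORA8 (0.77) and SNORA16A (0.75) were each lost without any of 4 single libraries.

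The summed level of these RNAs did not move as evenly as the list's median. In Tet plus it was 4718 and 6165 CPM at 12 h against 3660.1 and 5185 CPM at 8 h. In Tet minus it was 4695 and 4512 CPM at 12 h against 2669 and 5360.4 CPM at 8 h, so replicate 1 was higher and replicate 2 lower at 12 h. The Tet minus 8 h replicate 1 library held the lowest share of these RNAs, 0.271% of gene counts, and its part in the calls was not tested apart from leaving it out.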
